A study of Mus musculus with 8 samples.

Results

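Messenger RNA of 10 lysine acetyltransferases was followed in tumor myeloid cells: Ep300, Crebbp, Kat2a, Kat2b, Kat5, Kat6a, Kat6b, Kat7, Kat8 and Hat1. They were taken by gene name with no rule on their values, but the list was drawn up with earlier results of these data known. Each matched 1 row, so that 10 of the 55450 genes in the count table are described. All 10 passed the filter on low counts, which left 16467 genes for testing. The 8 libraries came from 5 samples of macrophages from bone marrow (BMDM, the offspring of blood monocytes) and 3 samples of resident microglia, sorted by flow cytometry. All samples are labelled wild type and came from tumors of the mouse glioma line GL261 set up in the brain. Both gates took F4/80+ CD11b+ Ly6G- cells with low or no Ly6C. BMDM were CD45+ and CD49d high, and microglia were CD45 low with low or no CD49d. No age or sex is given in the sources used here, nor is it stated whether each library came from a separate mouse, so the p-values rest on the spread between libraries, which may be technical.

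Lysine acetyltransferases move an acyl group from acyl-coenzyme A to lysine side chains of histones and other proteins. Several of them, p300 above all, have been studied as writers of histone lactylation, in which the group comes from lactate, the end product of glycolysis. The study's title concerns lactylation driven by glucose in monocyte-derived macrophages. The question addressed here is whether mRNA of the candidate writers differed between the 2 cell populations. Ep300 and Crebbp encode p300 and CBP, large coactivators that many transcription factors recruit to enhancers. Kat2a (GCN5), Kat2b (PCAF) and Hat1 belong to the GNAT family, and Kat5 (TIP60), Kat6a (MOZ), Kat6b (MORF), Kat7 (HBO1) and Kat8 (MOF) to the MYST family.

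Libraries held 5890406 to 9169531 counts in BMDM and 10491469 to 16659154 in microglia, and single members had between 14 and 2954 counts per library. The rRNA-overlapping gene model Gm42418 took 14.8% to 19.8% of the counts in BMDM 1 to 3. It took 41.2% and 48.9% in BMDM 4 and BMDM 5, and 34% to 47% in microglia. BMDM 4 and BMDM 5 also had no count for 26.5% and 20.4% of the genes tested, against 2.95% to 5.33% in BMDM 1 to 3 and 1.79% to 11.9% in microglia. BMDM 4 and 5 thus differed from BMDM 1 to 3 in both measures. By the Gm42418 share they were in or just above the microglial range and BMDM 1 to 3 stood apart, while by genes without counts BMDM 4 and 5 were above all other libraries. Results are therefore also given for BMDM 1 to 3 alone. Of 10 monocyte-derived markers, 10 were higher in BMDM, and of 10 microglia markers, 7 were lower in BMDM, in the edgeR fit.

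For the GNAT pair Kat2b and Kat2a and for the MYST gene Kat6b, sequence upstream of the annotated RNA start is shown, because Kat2b and Kat6b stood low in the same 3 BMDM libraries while Kat2a, the paralog of Kat2b, did not. The sequences are from RefSeq, read in the direction of the gene on GRCm38.p6, and end where the first GENCODE M21 exon begins or at the RefSeq RNA start. The Kat6b window precedes an RNA start 18336 bases from the GENCODE gene start, inside the annotated gene. Kat2b and Kat6b each had another RefSeq window, which is not shown. Capitals mark GGGCGG, the GC box bound by SP1, on either strand.
Kat2b, chr17:53566721-53566860, plus strand: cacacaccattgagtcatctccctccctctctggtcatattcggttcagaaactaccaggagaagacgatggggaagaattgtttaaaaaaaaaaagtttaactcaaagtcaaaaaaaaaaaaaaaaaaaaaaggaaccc
Kat2a, chr11:100712468-100712717, minus strand: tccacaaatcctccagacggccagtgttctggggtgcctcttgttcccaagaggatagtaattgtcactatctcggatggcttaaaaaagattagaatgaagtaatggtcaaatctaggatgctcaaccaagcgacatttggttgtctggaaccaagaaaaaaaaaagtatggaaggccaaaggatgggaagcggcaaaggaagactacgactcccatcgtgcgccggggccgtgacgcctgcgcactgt
Kat6b, chr14:21499520-21499769, plus strand: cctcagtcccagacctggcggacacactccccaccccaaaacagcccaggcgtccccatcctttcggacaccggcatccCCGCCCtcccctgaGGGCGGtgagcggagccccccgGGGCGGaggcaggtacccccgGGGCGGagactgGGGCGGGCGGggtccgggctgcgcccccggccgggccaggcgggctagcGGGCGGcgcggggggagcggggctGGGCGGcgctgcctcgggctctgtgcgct

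The Kat6b window held 8 GC boxes, a pair of which overlap, and 27 CpG dinucleotides, while the Kat2a window held 0 GC boxes and 11 CpG. Both Kat2b windows also held 0 GC boxes, although Kat2b was low in the same libraries as Kat6b. Of the other low members with a window, Ep300 had 1 and Crebbp 2. Among members that were not low, Hat1 had 1, Kat8 had 1 in each window, Kat5 had 0 and 3, and Kat7 had 0. A GC box was present in 32.74% of all 32851 windows of 250 bases before a RefSeq start, whose median CpG count was 6. The windows of Ep300, Crebbp and Hat1 begin inside annotated exons and are not shown. Their RefSeq RNA starts lie 863, 593 and 302 bases from the GENCODE gene start, so their counts include exon sequence. CpG counts did not fully separate the sets of members described below, and a part of sequence in that division was not tested. The 250-base windows of Ep300, Crebbp and Kat6b, low in BMDM 1 to 3, had 25, 44 and 27 CpG, and that of Kat2b, low in the same libraries, had 6. The other window of Kat6b had 29 and that of Kat2b had 5. Among members that were not low, Hat1 had 27, and Kat5 had 15 and 24 in its 2 windows. Kat2a had 11, Kat7 had 8, and Kat8 had 10 and 5, all below Ep300, Crebbp and Kat6b. Both strands were also searched for TGACGTCA, the cyclic AMP response element (in 1.55% of all windows), the NRF1 motif (0.78%) and TATAAA, the box found near many start sites (12.37%). None of these 3 was found in the windows of the 9 members in the RefSeq table (all but Kat6a). CCGGAAGT (ETS, 2.88%) was found in that of Hat1 alone.

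Across all 8 libraries no acetyltransferase gene passed the test in either direction, with 0 of 10 higher and 0 of 10 lower in BMDM (edgeR quasi-likelihood F test, adjusted after Benjamini and Hochberg). Over all genes tested, 1.93% were called, 1.11% higher and 0.814% lower in BMDM, so that a count of 0 among 10 genes is near the background. At an unadjusted p under 0.05 the count was also 0 of 10 in each direction, against 6.49% of all genes higher and 7.27% lower, and DESeq2 called 0. The 2 groups of libraries overlapped for all 10 members, whereas over all genes tested they did not overlap for 8.66% with BMDM lower and 4.32% with BMDM higher. The median log2 fold change of the members (BMDM minus microglia) was -0.12, against 0.08 for all genes tested. Power was limited. In simulated counts of 14559 genes with the same 8 libraries, a log2 fold of 1 was recovered for 0% of changed genes, a fold of 2 for 24%, 3 for 70% and 4 for 88%. The changed genes were drawn only from those above a minimum mean count. The rates may thus be too high for sparse members such as Kat8, with 17 to 96 counts a library. A lower value here can mean fewer transcripts per cell or fewer cells that express the gene, which bulk libraries cannot tell apart.

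The members fell into a set of 5 that was low in BMDM 1 to 3, formed by Ep300, Crebbp, Kat2b, Kat6a and Kat6b, and a set of 5 without that pattern. For each gene of the first set, BMDM 1, 2 and 3 lay below every one of the other 5 libraries, microglia and BMDM 4 and 5 alike. That arrangement was found for 6.83% of all genes tested, and the reverse, with BMDM 1 to 3 above all others, for 10% of genes and 0 of 10 members. The same division of libraries separates low from high Gm42418 shares; its part in the result was not tested. With BMDM 1 to 3 alone against microglia, edgeR called 4 members lower, Ep300, Kat2b, Kat6a and Kat6b, and 0 higher. The set of 5 was formed by low values in these same libraries. Its p-values and intervals from this fit, here and for each gene below, are thus no separate evidence for the set. In that fit 14.5% of all genes were called, 8.11% lower and 6.35% higher. The median log2 fold change was -0.52 for members and 0.09 for all genes. With Gm42418 and the mitochondrial rRNA genes removed before scaling, the same 4 members were called. With BMDM 4 and 5 alone against microglia, a comparison added after the data were seen, 0 of 10 were called. Of all genes 0.105% were called there, 0.0683% higher and 0.0372% lower.

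**Figure D1:**
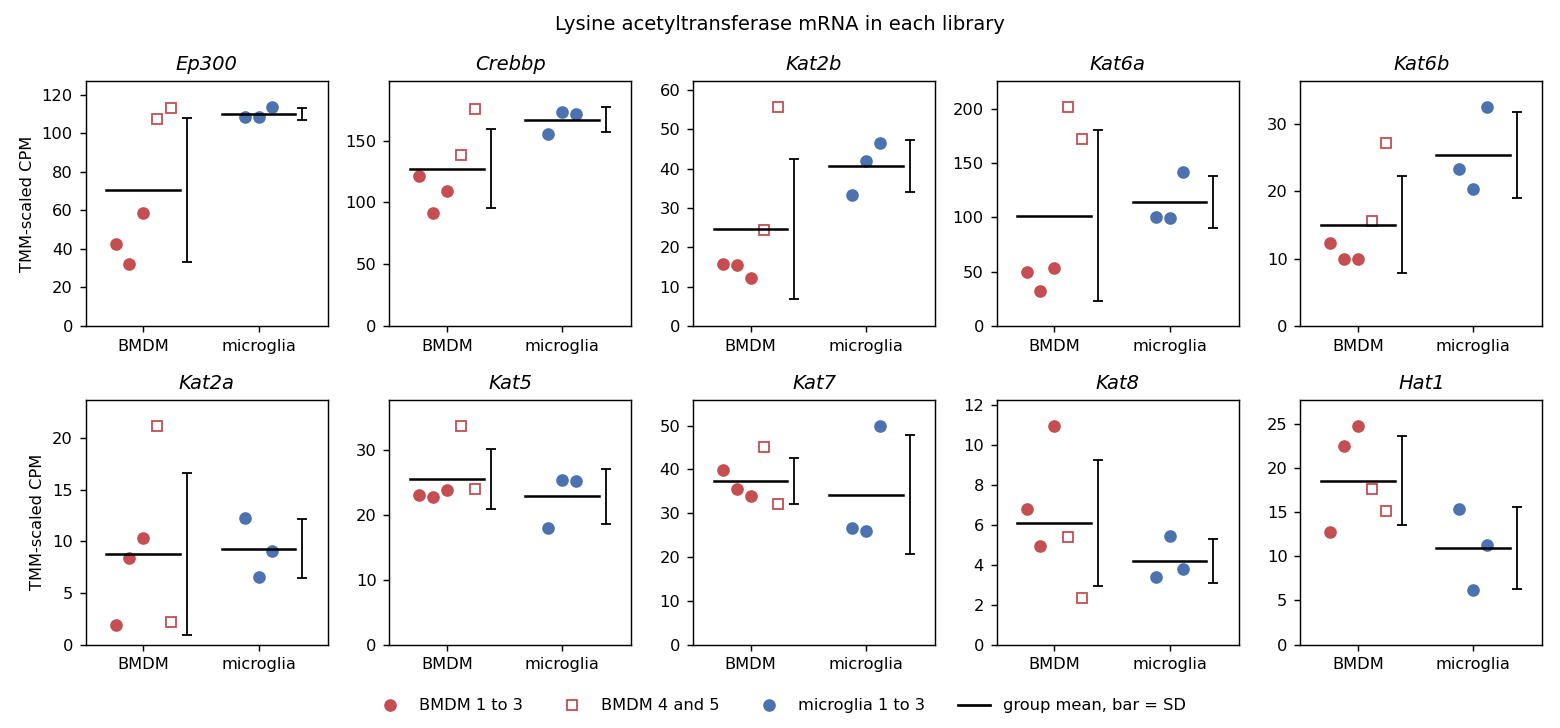
Counts scaled to library size by TMM (CPM) of each acetyltransferase gene in every library, BMDM left of microglia, with filled red circles for BMDM 1 to 3, open red squares for BMDM 4 and 5 and blue circles for microglia. Black lines are group means and bars the SD (n = 5 BMDM and 3 microglia). In the upper row the filled red circles lie below all other points.

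Ep300 (chromosome 15, 81585351 to 81652077, GRCm38, plus strand) encodes p300, the enzyme most often named as a lactylation writer. It had 42.5, 32.01, 58.7, 107 and 113 CPM in BMDM 1 to 5, against 108, 108 and 113 CPM in microglia 1 to 3. The microglia libraries were nearly equal, BMDM 4 and 5 sat at the microglial level, and BMDM 1 to 3 were below it. Over all libraries BMDM averaged 70.7 ± 37.2 CPM (SD, n = 5) and microglia 110 ± 2.91 (n = 3). The log2 fold change was -0.64 (SE 0.41, 95% interval -1.52 to 0.25, edgeR adjusted p = 0.584). Restricted to BMDM 1 to 3 it was -1.30 (SE 0.27, edgeR adjusted p = 0.0108), or 0.407 times the microglial level. With BMDM 4 and 5 alone it was -0.01 (95% interval -0.71 to 0.69, adjusted p = 0.993).

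Crebbp (chromosome 16, 4081328 to 4213997, minus strand) encodes CBP, the close paralog of p300. It had 121, 91.5, 110, 139 and 176 CPM in BMDM 1 to 5, against 155, 174 and 172 CPM in microglia 1 to 3. The groups overlapped through BMDM 5, the highest of all libraries. The edgeR log2 fold change was -0.39 (SE 0.33, 95% interval -1.10 to 0.32, edgeR adjusted p = 0.724). It did not pass with BMDM 1 to 3 alone either, at -0.62 (SE 0.24, edgeR adjusted p = 0.112), although those 3 libraries were below all others.

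The share of Ep300 in the summed counts of Ep300 and Crebbp does not depend on how libraries are scaled. It was 26.0%, 25.9%, 34.9%, 43.6% and 39.1% in BMDM 1 to 5, against 41.1%, 38.4% and 39.8% in microglia 1 to 3. The widest 95% Wilson interval was 2.71 points to each side, which covers counting error only. BMDM 1 to 3 lay below the microglia and BMDM 4 above them. The means were 33.9% ± 7.89 (SD) over the 5 BMDM and 39.8% ± 1.35 over the 3 microglia libraries. The difference of -5.86 points gave p = 0.321 in an exact two-sided permutation test over 56 assignments, and adjusted p = 0.679 over 3 shares, where the smallest possible unadjusted p is 0.0357. Restricted to BMDM 1 to 3 it was -10.84 points (exact permutation p = 0.1, the smallest that 3 against 3 allows).

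Among the GNAT enzymes, Kat2b (chromosome 17, 53566861 to 53672720, plus strand) encodes PCAF, a subunit of the SAGA and ATAC coactivator complexes. It had 15.7, 15.5, 12.2, 24.4 and 55.6 CPM in BMDM 1 to 5, against 33.3, 41.9 and 46.4 CPM in microglia 1 to 3. Of the BMDM libraries only BMDM 5 reached the microglial range, and it exceeded it. Over all libraries the log2 fold change was -0.72 (SE 0.47, 95% interval -1.72 to 0.29, edgeR adjusted p = 0.591). Without BMDM 5 it was -1.27 (SE 0.32) and passed, with an edgeR adjusted p of 0.0355. With BMDM 1 to 3 alone it was -1.47 (SE 0.29, edgeR adjusted p = 0.00769), or 0.362 times the microglial level. With BMDM 4 and 5 alone it was -0.03 (95% interval -1.08 to 1.02).

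Kat2a (chromosome 11, 100704746 to 100712465, minus strand) encodes GCN5, which takes the same place as PCAF in those complexes. It had 1.86, 8.37, 10.3, 21.2 and 2.21 CPM in BMDM 1 to 5, against 12.3, 6.54 and 9.01 CPM in microglia 1 to 3. BMDM 1 and BMDM 5 were low, with 14 and 16 counts, and BMDM 4 was the highest of all, so the BMDM libraries spanned the microglial range on both sides. This gave a log2 fold change of -0.08 (SE 0.78, 95% interval -1.75 to 1.58, edgeR adjusted p = 0.985), a wide interval. Its sign turned with RLE scaling (0.00) and with several libraries left out. BMDM 1 to 3 alone gave -0.43 (SE 0.62, adjusted p = 0.678).

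The Kat2b share of Kat2b plus Kat2a counts was 89.4%, 64.9%, 54.3%, 53.5% and 96.2% in BMDM 1 to 5, against 73.1%, 86.5% and 83.7% in microglia 1 to 3. The widest Wilson interval was 6.89 points to each side. Spread among BMDM was far above counting error, with BMDM 1 and 5 above all microglia and BMDM 2, 3 and 4 below them. The means of 71.7% ± 19.9 (n = 5) in BMDM and 81.1% ± 7.07 (n = 3) in microglia differed by -9.46 points (exact two-sided permutation p = 0.464, adjusted p = 0.679 over 3 shares). For BMDM 1 to 3 alone the difference was -11.57 points (exact permutation p = 0.4).

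Hat1 (chromosome 2, 71388958 to 71441622, plus strand) encodes the enzyme that acetylates newly made histone H4 before it is placed on DNA. It had 12.8, 22.5, 24.8, 17.7 and 15.2 CPM in BMDM 1 to 5, against 15.4, 6.14 and 11.2 CPM in microglia 1 to 3. The groups overlapped through microglia 1, which was above BMDM 1 and BMDM 5. The log2 fold change of 0.77 was the highest of the 10 members (SE 0.47, 95% interval -0.24 to 1.77, edgeR adjusted p = 0.557). It was 0.88 (SE 0.43, edgeR adjusted p = 0.194) with BMDM 1 to 3 alone and 0.57 with BMDM 4 and 5 alone, positive in both. Of 5 HAT1 partners and histone chaperones, 0 were called in either direction, with a median of -0.19. The nearest to the threshold were Rbbp7, the histone-binding partner of HAT1, at -0.87 (SE 0.34, edgeR adjusted p = 0.242), and Nasp, a histone chaperone, at -0.95 (SE 0.38, adjusted p = 0.265). Both were called lower when BMDM 1 to 3 alone were fitted, Rbbp7 at -0.99 (edgeR adjusted p = 0.0373) and Nasp at -1.29 (adjusted p = 0.0296). In the list of DNA replication and cell cycle genes 0 of 20 were called and 16 were negative, with a median of -0.64. Over all genes tested 46.9% were negative, with a median of 0.08. The sign of Hat1 differed from that of most genes of this list. In the fit of BMDM 1 to 3, Rrm1 (-1.07) and Uhrf1 (-2.50) of these 20 were called lower, against 8.11% of all genes.

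**Figure D2:**
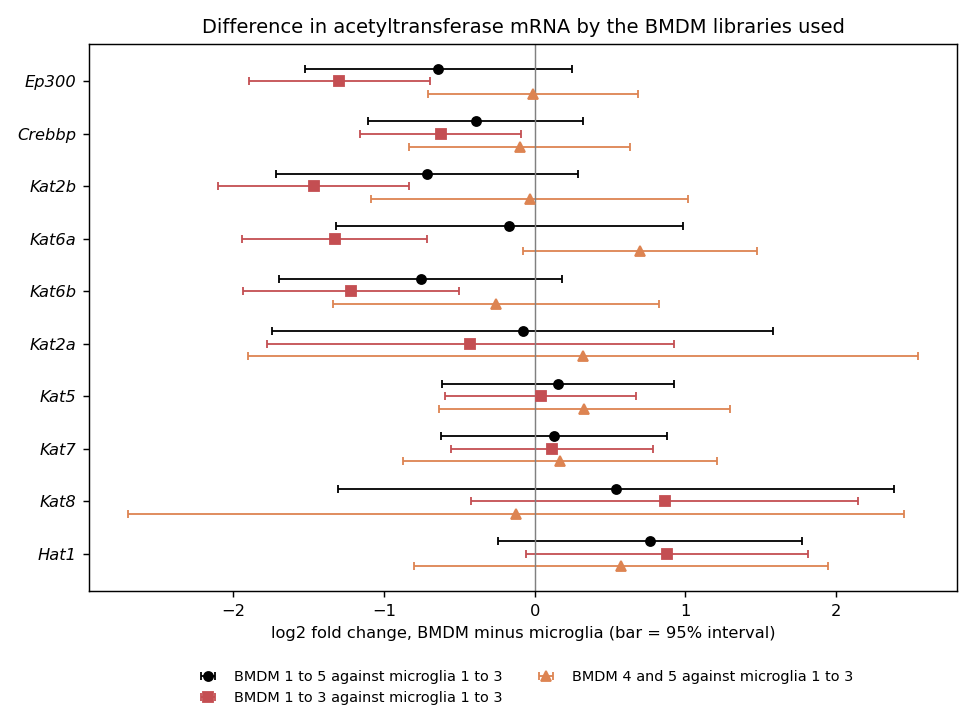
Log2 fold change of each member with its 95% interval (unadjusted) for 3 sets of BMDM libraries against the same microglia. For Ep300, Crebbp, Kat2b, Kat6a and Kat6b the intervals with BMDM 1 to 3 (red squares) lie below 0 and those with BMDM 4 and 5 (orange triangles) include 0. These genes were grouped by their low values in BMDM 1 to 3.

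In the MYST family, Kat6a (chromosome 8, 22859535 to 22943259, plus strand) encodes MOZ, an acetyltransferase needed by blood stem cells. It had 49.7, 32.01, 53.0, 201 and 172 CPM in BMDM 1 to 5, against 101, 99.7 and 142 CPM in microglia 1 to 3. No BMDM library lay within the microglial range: BMDM 1 to 3 were below it and BMDM 4 and 5 above it. The log2 fold change over all libraries was -0.17 (SE 0.54, 95% interval -1.32 to 0.98, edgeR adjusted p = 0.949). For BMDM 1 to 3 alone it was -1.33 (SE 0.28, edgeR adjusted p = 0.0107), or 0.398 times the microglial level. With BMDM 4 and 5 alone the sign was positive, at 0.70 (SE 0.33, 95% interval -0.07 to 1.48, edgeR adjusted p = 0.314).

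Kat6b (chromosome 14, 21481434 to 21672478, plus strand) encodes MORF, the paralog of MOZ. It had 12.4, 9.97, 9.95, 15.6 and 27.2 CPM in BMDM 1 to 5, against 23.3, 20.3 and 32.5 CPM in microglia 1 to 3. BMDM 5 alone was within the microglial range. Its log2 fold change was -0.76 (SE 0.44, 95% interval -1.70 to 0.18, edgeR adjusted p = 0.514), the lowest of the 10 members. With BMDM 1 to 3 alone it was -1.22 (SE 0.33, edgeR adjusted p = 0.0295), or 0.430 times the microglial level, and with BMDM 4 and 5 alone -0.26 (95% interval -1.34 to 0.83).

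The Kat6a share of Kat6a plus Kat6b counts was 80.0%, 76.2%, 84.2%, 92.8% and 86.4% in BMDM 1 to 5, against 81.2%, 83.1% and 81.4% in microglia 1 to 3. The widest Wilson interval was 4.50 points to each side. The microglia were close together, and BMDM lay on both sides of them. The means of 83.9% ± 6.30 (n = 5) in BMDM and 81.9% ± 1.04 (n = 3) in microglia differed by 2.06 points (exact two-sided permutation p = 0.679, adjusted p = 0.679 over 3 shares), and by -1.71 points with BMDM 1 to 3 alone. In this pair both genes were low together in BMDM 1 to 3, whereas Ep300 was low by more than Crebbp there.

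**Figure D3:**
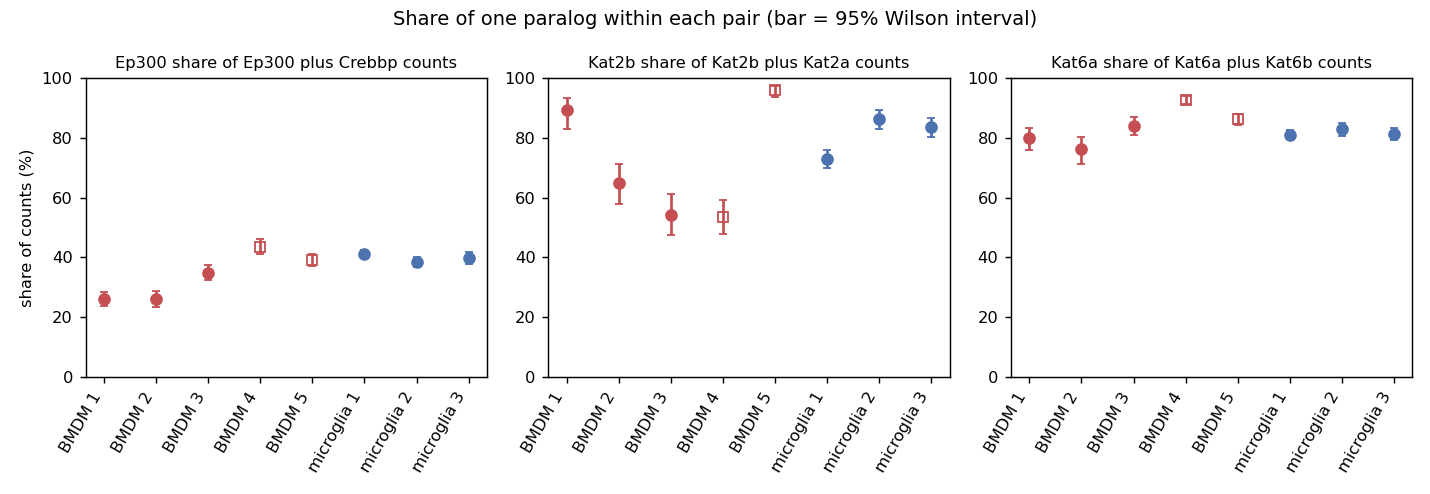
Share of counts taken by the first-named gene of each paralog pair in every library (percent, axis from 0 to 100), BMDM in red and microglia in blue, with open squares for BMDM 4 and 5 and bars for the 95% Wilson interval. BMDM 1 and 2 have an Ep300 share near 26%, and the Kat2b share ranges from 53.5% to 96.2% among BMDM.

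Kat5 (chromosome 19, 5603014 to 5610237, minus strand) encodes TIP60, which acts in transcription and DNA repair. It had 23.0, 22.8, 23.8, 33.7 and 24.1 CPM in BMDM 1 to 5, against 17.9, 25.3 and 25.3 CPM in microglia 1 to 3. Apart from BMDM 4 the BMDM libraries were within 2 CPM of each other and inside the microglial range. Its log2 fold change was 0.16 (SE 0.36, 95% interval -0.61 to 0.93, edgeR adjusted p = 0.92), and 0.04 with BMDM 1 to 3 alone. The gene shares 426 exon bases with Rnaseh2c on the opposite strand, and the sources do not state whether counting used strand. Rnaseh2c averaged 24.4 ± 11.2 CPM over 5 BMDM libraries and 9.16 ± 3.26 CPM over 3 microglia libraries, so the values of Kat5 may hold some of its reads.

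Kat7 (chromosome 11, 95274259 to 95310246, minus strand) encodes HBO1, which acetylates histone H3 and H4 at promoters and replication origins. It had 39.8, 35.6, 33.9, 45.2 and 32.1 CPM in BMDM 1 to 5, against 26.7, 25.95 and 49.95 CPM in microglia 1 to 3. Every BMDM library lay between the microglia, of which microglia 3 was the highest of all. Its log2 fold change was 0.13 (SE 0.35, 95% interval -0.62 to 0.88, edgeR adjusted p = 0.941), and 0.11 for BMDM 1 to 3 alone (adjusted p = 0.833).

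Kat8 (chromosome 7, 127912516 to 127925837, plus strand) encodes MOF, which acetylates histone H4 as part of the MSL and NSL complexes. It had 6.79, 4.93, 10.98, 5.41 and 2.35 CPM in BMDM 1 to 5, against 3.37, 5.43 and 3.78 CPM in microglia 1 to 3. The groups overlapped, with BMDM 3 highest and BMDM 5 lowest. The log2 fold change was 0.54 (SE 0.87, 95% interval -1.31 to 2.39, edgeR adjusted p = 0.875). BMDM 1 to 3 alone gave 0.86 (SE 0.59, adjusted p = 0.353) and BMDM 4 and 5 alone -0.12. It was measured on 17 to 96 counts a library, the fewest of the MYST genes. Its exons share 122 bases with Prss8 on the opposite strand, and Prss8 had 0 counts in all libraries.

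Annotated length differed between the sets. The longest transcripts of Ep300, Crebbp, Kat2b, Kat6a and Kat6b measured 9.57, 10.82, 4.65, 9.11 and 7.70 kb in GENCODE M21. Those of Kat2a, Kat5, Kat7, Kat8 and Hat1 measured 3.27, 2.25, 3.56, 1.58 and 1.90 kb. The first 5 are all longer than the other 5. Over all tested protein-coding genes the median log2 fold change with BMDM 1 to 3 alone was -0.35 for transcripts above 8 kb (856 genes) and -0.32 from 4 to 8 kb (4318 genes). It was -0.04 from 2 to 4 kb (5110 genes) and 0.46 up to 2 kb (2433 genes). In that fit 19.4% of genes above 8 kb were called lower and 2.7% higher, against 3.3% lower and 16.8% higher up to 2 kb. With BMDM 4 and 5 alone the medians were -0.28 above 8 kb and -0.01 up to 2 kb. With BMDM 1 to 3, Ep300, Crebbp, Kat2b, Kat6a, Kat6b and Kat2a lay below the median of their length class. Kat5, Kat7, Kat8 and Hat1 lay above it, as the plot of transcript length shows. The first 5 had been grouped by their low values in these same libraries, so their place below the medians is no separate evidence. The part of length in the result was not tested.

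**Figure D4:**
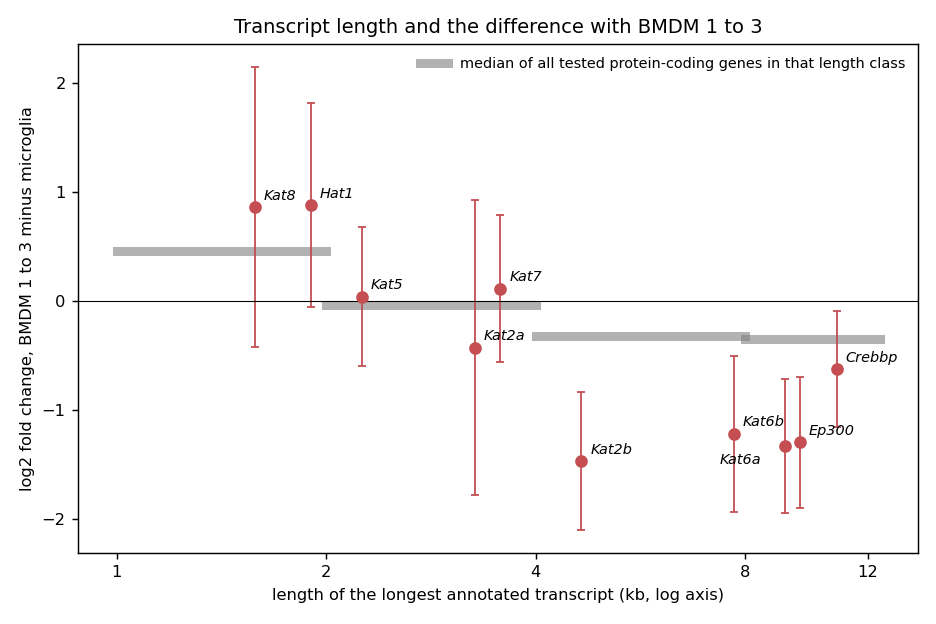
Log2 fold change with BMDM 1 to 3 alone against microglia, with its 95% interval, by the length of the longest annotated transcript (kb, log axis). Grey bars are medians of all tested protein-coding genes in 4 length classes, from 0.46 up to 2 kb to -0.35 above 8 kb.

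Some other genes had a similar course over the libraries. Likeness was measured by Pearson r of log2 CPM over the 8 libraries, among 5049 genes averaging 20 CPM or more, as a description only. For Ep300, Crebbp, Kat2b, Kat6a and Kat6b, r also reflects the gap between BMDM 1 to 3 and the other 5 libraries. Kat2a, Kat5, Kat7, Kat8 and Hat1 had no such gap. The genes most like Ep300 were Gtf2a1, a subunit of the general transcription factor TFIIA (r = 0.99), Atf7ip (0.988) and Rc3h1 (0.988). Those most like Crebbp were Thrap3 (0.99), Chd2 (0.986) and Itgav (0.986). Ncor1, a corepressor that works with histone deacetylases, was the most like Kat2b (0.987) and among the 3 most like Kat6b (0.976). For Kat6a they were Ssr1 (0.99), Birc6 (0.984) and Casp4 (0.98), and for Hat1 Map2k1 (0.943), Dnajb11 (0.927) and Eapp (0.886). The nearest genes of the remaining members were those of Kat2a (Hbp1, 0.955), Kat5 (Tiparp, 0.946), Kat8 (Flot1, 0.946) and Kat7 (Tlr13, 0.881). Among the members, r was 0.95 for Kat2b with Kat6b, 0.93 for Crebbp with Kat2b, and 0.92 for Ep300 with Crebbp and with Kat6a. It was -0.13 between the paralogs Kat2a and Kat2b.

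The acetyltransferases work in large complexes, and the genes of these were described as lists. Over all genes tested the median was 0.08, 46.9% were negative, and 1.11% were called higher and 0.814% lower. With BMDM 1 to 3 alone 6.35% of all genes were called higher and 8.11% lower. Among SAGA and ATAC subunits, partners of Kat2a and Kat2b, 1 of 26 tested genes was higher in BMDM and 0 lower, with a median of -0.24. The called gene was Sf3b5, which is also a subunit of the splicing factor SF3B, with a mean of 79.5 ± 12.8 CPM over 5 BMDM libraries and 26.3 ± 7.57 CPM over 3 microglia libraries. Its log2 fold change was 1.597 (SE 0.35, edgeR adjusted p = 0.0275). Trrap, the scaffold of both SAGA and the TIP60 complex, was at -1.40 (SE 0.51, adjusted p = 0.211). With BMDM 1 to 3 alone it was called lower, at -1.83 (SE 0.33, edgeR adjusted p = 0.00551). In that fit Sf3b5 (1.73, adjusted p = 0.00404) and Taf10 (1.57, adjusted p = 0.00283), a subunit shared with the general factor TFIID, were called higher. In the TIP60 complex 0 of 17 were called, with a median of -0.23, and Vps72 was at 1.46 (SE 0.52, adjusted p = 0.194). For BMDM 1 to 3 alone Vps72 was called higher (1.22, edgeR adjusted p = 0.0341), and Mbtd1 (-0.86, adjusted p = 0.0448) and Trrap lower.

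For the complexes of the other MYST enzymes the counts were also 0 in both directions. Signs and medians are to be read beside all genes tested, of which 46.9% were negative, with a median of 0.08. The scaffolds and partners of Kat6a, Kat6b and Kat7 had 0 of 8 called and 7 negative, with a median of -0.40, and Jade2, a scaffold of HBO1, at -1.36 (SE 0.47, edgeR adjusted p = 0.182). The MSL and NSL subunits of Kat8 had 0 of 12 called and 10 negative, with a median of -0.28. Ogt, which adds N-acetylglucosamine to proteins and is bound by the NSL complex, was at -1.20 (SE 0.41, adjusted p = 0.174), and its groups did not overlap. With BMDM 1 to 3 alone 1 of the 8 and 3 of the 12 were called lower, against 8.11% of all genes. These were Jade2 in the former list and Ogt, Phf20l1 and Kansl1 in the latter. Partners of Ep300 and Crebbp had 0 of 9 called, with a median of -0.15. Creb1, the factor after which CBP is named, was at -0.77 (SE 0.41, adjusted p = 0.457), and was called lower at -1.43 with BMDM 1 to 3 alone (adjusted p = 0.00576). Of 17 other proposed acetyltransferases 0 were called and 15 were negative, with a median of -0.42. For BMDM 1 to 3 alone Taf1 (-1.23), Nat10 (-1.37) and Esco1 (-1.60) were called lower, with edgeR adjusted p of 0.0184, 0.0395 and 0.0493.

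Supply and use of the acyl mark were described in the same way. With BMDM 1 to 3 alone 6.35% of all genes tested were called higher and 8.11% lower. Of 15 genes of acyl-CoA and lactate supply 0 were called, with a median of -0.28. Ldha, the lactate dehydrogenase subunit that favors lactate production, had 151, 200, 149, 88.2 and 111 CPM in BMDM 1 to 5, against 95.9, 71.1 and 37.4 CPM in microglia 1 to 3. It was highest in BMDM 1 to 3, the libraries in which Ep300 was lowest, and its log2 fold change was 1.04 (SE 0.41, edgeR adjusted p = 0.249). Over all genes tested, BMDM 1 to 3 lay above the other 5 libraries for 10% and below them for 6.83%. A link between Ldha and Ep300 was not tested. Ldhb, the other main subunit, averaged 8.89 CPM in BMDM and 54.5 CPM in microglia, at -2.61 (SE 0.83, adjusted p = 0.145), with no overlap between groups. With BMDM 1 to 3 alone, edgeR called Ldha (1.29) and Suclg1 (1.62), a subunit of succinyl-CoA ligase, higher and Ldhb (-1.94) lower. Of 23 readers of acylated lysine 0 were called, with a median of -0.15, and Mllt3, a YEATS-domain reader, was at -1.22 (SE 0.39, adjusted p = 0.15). For BMDM 1 to 3 alone 4 readers were called lower, Trim24 (-2.33), Smarca2 (-1.29), Phip (-1.27) and Mllt3 (-1.23, edgeR adjusted p = 0.0356). Of 17 deacylases 0 were called, with a median of 0.08, and Hdac1 was at -1.63 (SE 0.47, adjusted p = 0.102). In the fit of BMDM 1 to 3, Hdac1 (-1.46, adjusted p = 0.00855) and Hdac2 (-1.58, adjusted p = 0.018) were called lower and Hdac8 (1.97, edgeR adjusted p = 0.0204) higher.

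Il10, which encodes an immunosuppressive cytokine, did not share the division seen for Ep300, Crebbp, Kat2b, Kat6a and Kat6b. It had 25.3, 27.0, 100, 46.5 and 155 CPM in BMDM 1 to 5, against 0.526, 6.03 and 1.22 CPM in microglia 1 to 3, so all BMDM libraries, BMDM 4 and 5 included, stood above the microglia.

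Markers of other cells were also present. Of 10 T and NK cell markers 7 were tested and 0 called, with a summed level of 15.3 to 73.5 CPM in BMDM and 2.34 to 6.78 CPM in microglia. Of 10 neutrophil markers 5 were tested and 1, S100a8, was called higher, with a sum of 34.2 to 94.4 CPM in BMDM and 33.2 to 38.7 CPM in microglia. Ly6g, Mpo and Elane, not tested, had 0 counts in microglia and at most 1, 7 and 6 counts in any BMDM library. Of 7 dendritic cell markers 6 were tested and 1, Ccr7, was called higher (16.2 to 84.5 CPM in BMDM, 11.9 to 24.1 CPM in microglia). No B cell, neural and glial or endothelial marker was called, among 2, 7 and 5 tested. In the fit of BMDM 1 to 3, where 4 members were called lower, more of these markers were called. Higher there were the T and NK cell genes Cd3d (5.26), Cd4 (5.00) and Nkg7 (3.08), with all 7 tested T and NK genes positive over all libraries. The neutrophil genes S100a8 (4.09), Retnlg (4.06) and S100a9 (2.74), the dendritic cell genes Ccr7 (6.40) and Xcr1 (4.88), and the neuronal gene Rbfox3 (1.74) were also higher, and the neutrophil gene Csf3r (-1.64) was lower. Their part in the values above was not tested.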

How the data were processed

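Raw counts of reads for each gene were deposited by the authors, unnormalized, from QuantSeq 3′ FWD libraries, which read the 3′ end of polyadenylated transcripts (single reads of 75 bases, per the labels' protocols). Per the submitters' processing notes, the tools named are STAR, featureCounts, cutadapt, FastQC and DESeq2, and the build is mm10. Versions, settings, strand use and the handling of reads with several matches are not given in the sources used here. All 55450 identifiers and names were found in GENCODE M21 (GRCm38), from which positions and lengths were taken.

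Counts were fitted over the whole table with edgeR 4.0.16 in R 4.3.3: filterByExpr (minimum count 10, minimum total 15), TMM scaling, robust quasi-likelihood fit, and the test of BMDM minus microglia over all 8 libraries with p adjusted after Benjamini and Hochberg over 16467 genes and a threshold of 0.05. SEs derive from the F statistic, intervals are 95% and unadjusted, CPM is TMM-scaled, and log2 CPM used a prior count of 2. No 2 libraries of a group agreed within sampling noise (lowest chi-square per degree of freedom 21.1). The 3′ end of each member's longest transcript was compared with all GENCODE transcripts. Only Kat5 and Kat8 matched another gene (at least 90% identity over 75 bases), their overlapping neighbors Rnaseh2c and Prss8. Levels of different genes were not ranked against each other. The fit was tested on simulated data, with 4 false calls among 95.

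Members, lists, shares and alternatives were chosen with earlier results of these data known. Named genes were the members, the called genes of each list with examples from the 3 of smallest p, the 3 genes most like a member, Ldha and Il10. Other genes called with BMDM 1 to 3 were named after their values were seen. Alternatives were RLE factors, library totals, 2 other filters, DESeq2 1.42.0, limma 3.58.1 voom with and without sample weights, a replicate block, BMDM 1 to 3 alone, removal of rRNA-related genes and each library left out. BMDM 4 and 5 alone, BMDM 1 to 3 without rRNA-related genes, and thinning to 4151079 counts were added after seeing the data.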

Additional observations from a re-analysis of the deposited data

Results flagged for a closer look

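Among 13 sets of 5 BMDM values checked (10 CPM levels and 3 paralog shares), 2 had a library far from the others, where chance alone flags about 1 in 20. Kat2b reached 55.6 CPM in BMDM 5, with a gap to the next library of 0.72 of the whole range. Kat5 reached 33.7 CPM in BMDM 4, with a gap of 0.884 of the range. Both are libraries with a high Gm42418 share and many genes without counts.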

How the results depend on the processing

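The 317 genes called over all libraries became 721 with no filter on low counts, 922 with DESeq2, 2731 with limma-voom and sample weights, 2340 with BMDM 1 to 3 alone, 2325 with BMDM 1 to 3 and no rRNA-related genes, 17 with BMDM 4 and 5 alone, and 104 (without microglia 3) to 1138 (without BMDM 5) with 1 library left out. Called members numbered 4 with sample weights, with BMDM 1 to 3 alone and with BMDM 1 to 3 and no rRNA-related genes, each time Ep300, Kat2b, Kat6a and Kat6b. They numbered 0 to 1 with 1 library left out (Kat2b without BMDM 5) and 0 under the remaining alternatives apart from the replicate block. Genes tested numbered 16467 with sample weights and 15864 without BMDM 5. There were 16182 with BMDM 1 to 3 alone and 16059 when rRNA-related genes were also removed. The weights were 0.279 and 0.226 for BMDM 4 and 5, against 1.27 to 1.91 for BMDM 1 to 3.

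The replicate block over replicates 1 to 3 gave 3244 called genes of 16182 tested and the same 4 members, against 2340 and 4 without it. Deviations of same-numbered libraries had r of 0.14, 0.09 and 0.24, each the highest for its library, a hint from the data only, so the numbers were not taken to pair them.

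Crebbp, Ep300, Kat2b, Kat6b and Hat1 kept their sign under all 21 alternatives. Kat2a turned to 0.00 with RLE factors and with DESeq2, 0.01 with the strict filter, 0.09 with thinning and 0.32 with BMDM 4 and 5 alone, where Kat6a was at 0.70 and Kat8 at -0.12. With 1 library left out Kat2a ran from -0.70 to 0.19, Kat6a from -0.62 to 0.07, Kat5 from 0.00 to 0.20 and Kat7 from -0.07 to 0.43. The signs turned for Kat2a without BMDM 1, BMDM 5 or microglia 1, for Kat6a without BMDM 1 or 2, for Kat5 without microglia 1, and for Kat7 without microglia 1 or 2. Kat8 did not pass the strict filter. The Kat6a share difference was -1.71 points with BMDM 1 to 3 alone and with the replicate block, and -0.16 to 3.98 with 1 library left out, negative without BMDM 4. The Ep300 share ran from -8.29 to -3.86 and the Kat2b share from -15.59 to -4.92. Library totals in place of TMM moved the median of all genes to 0.20, against 0.08. The cause of these changes was not tested.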
